A study of Mus musculus with 6 samples.

Results

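Zic1, Zic2, Zic4 and Zic5, members of the Zic family of zinc finger transcription factors, were examined in astroglial cells sorted from neonatal mouse cerebellum. Every probe whose gene name on the array was one of these 4 symbols was taken, which gave 8 probes of 55681. All 8 were well above background on all 6 arrays. Gene expression had been measured on Agilent arrays with 1 color in 3 samples of A+/G+ and 3 samples of A-/G+ cells, each of 50000 cells. A+/G+ cells, which carry the surface antigens ACSA-2 and GLAST, had been isolated with beads against ACSA-2. A-/G+ cells, which carry GLAST without ACSA-2, had been isolated in 2 steps, a depletion of cells bearing L1CAM, ACSA-2, CD45, PSA-NCAM or Ter119 followed by a selection for GLAST. Neurons, blood cells and leukocytes were thus depleted actively only from A-/G+. All mice were wild type and of either sex. The sample labels give the strain CD1 and postnatal days 1 to 3, whereas the methods of the study give a C57BL/6 background and the day of birth and the day after it.

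Zic factors bind DNA through a block of fingers in which 2 cysteines and 2 histidines hold a zinc ion, and this block resembles that of the GLI proteins, the effectors of Sonic hedgehog signaling. The family takes its name from the cerebellum, where Zic1 and Zic2 are best known from granule cell precursors and granule neurons. Loss of Zic1 and Zic4 is tied to a small and malformed cerebellum, and Zic2 is needed for the division of the forebrain. Meningeal fibroblasts and the dorsal midline carry Zic factors too, so that their presence does not by itself mark a glial or a neuronal cell.

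The genes lie in pairs. On chromosome 9 the probes of Zic1 read the minus strand and those of Zic4 the plus strand, and on chromosome 14 the probes of Zic5 read the minus strand and that of Zic2 the plus strand. In the RefSeq annotation of GRCm38.p6 no protein coding gene lies between the members of either pair, with 0 between Zic1 and Zic4 and 0 between Zic5 and Zic2. The array gives its probe positions on mm9. For Zic1, the brighter probe A_51_P194230 lies at chr9:91255425-91255484 and the dimmer probe A_55_P2009774 at chr9:91257301-91257360, 1876 bases apart. For Zic4, the brighter probe A_55_P2152637 lies at chr9:91282924-91282983 and the dimmer A_52_P502228 at chr9:91283991-91284050. The only probe of Zic2, A_55_P1962523, lies at chr14:122879296-122879355. For Zic5, the probes from bright to dim are A_55_P2123123 at chr14:122856019-122856078, A_66_P114229 at chr14:122857786-122857845 and A_55_P2003693 at chr14:122858394-122858453.

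Some probe sequences are shown because their letters tell which stretch of the transcript was read. The dimmer Zic1 probe alone, 1 of 8, holds an open frame with the codons of a finger, a cysteine, a second cysteine after 2 codons and a histidine after 12 more, which are in capitals. The dimmer Zic4 probe and the brightest Zic5 probe hold AATAAA, the letters of the common polyadenylation signal, and the 30 bases around them are given with these letters in capitals. Whether they act as a signal here was not tested. Each is read 5′ to 3′ on the strand of its gene.
Zic1 dimmer probe, chr9:91257301-91257360, minus strand, mm9: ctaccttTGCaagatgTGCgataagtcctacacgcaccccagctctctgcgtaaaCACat
Zic4 dimmer probe, chr9:91284021-91284050, plus strand, mm9: tcagtggttgttgAATAAAgttcaaagctg
Zic5 brightest probe, chr14:122856019-122856048, minus strand, mm9: tgatggacaaatgtAATAAAggtattcttc
Because fingers are alike across the family, whether the dimmer Zic1 probe also takes up transcripts of other Zic genes was not tested.

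All 8 Zic probes were higher in A-/G+ than in A+/G+, and for each of them the lowest A-/G+ sample lay above the highest A+/G+ sample. The difference ranged from 0.604 for the brighter Zic1 probe to 2.09 for Zic2 on the log2 scale, with a median of 1.31. With limma and Benjamini-Hochberg adjustment over all 55681 probes, 7 of 8 passed an adjusted p of 0.05, among them at least 1 probe of each of the 4 genes. Both Zic4 probes passed also without any 1 of the 6 arrays, and they were the only 2 that passed without any 1 of the A+/G+ arrays or with the t-test of the methods. Without A-/G+ replicate 1, 2 or 3, in this order, 3, 4 and 8 probes passed. By that limit, 4.64% of all probes and 11.9% of the 17973 probes well above background on all arrays were higher in A-/G+. A-/G+ samples lay wholly above A+/G+ samples for 32.8% of those 17973 probes. None of the 8 reached the limit of the study, in which the medians must also be at least 4-fold apart (0 of 8, with 0.399% of all probes so called higher in A-/G+). Without A-/G+ replicate 2, 1 probe did, that of Zic2, with medians 4.55-fold apart (adjusted p = 0.0407). Probes of 1 gene may read the same transcripts, which was not tested, so that the 8 cannot be counted as independent. Taken alone, 3 samples against 3 cannot give a two-sided exact permutation p below 0.1, and each of the 8 probes gave 0.1.

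**Figure D1:**
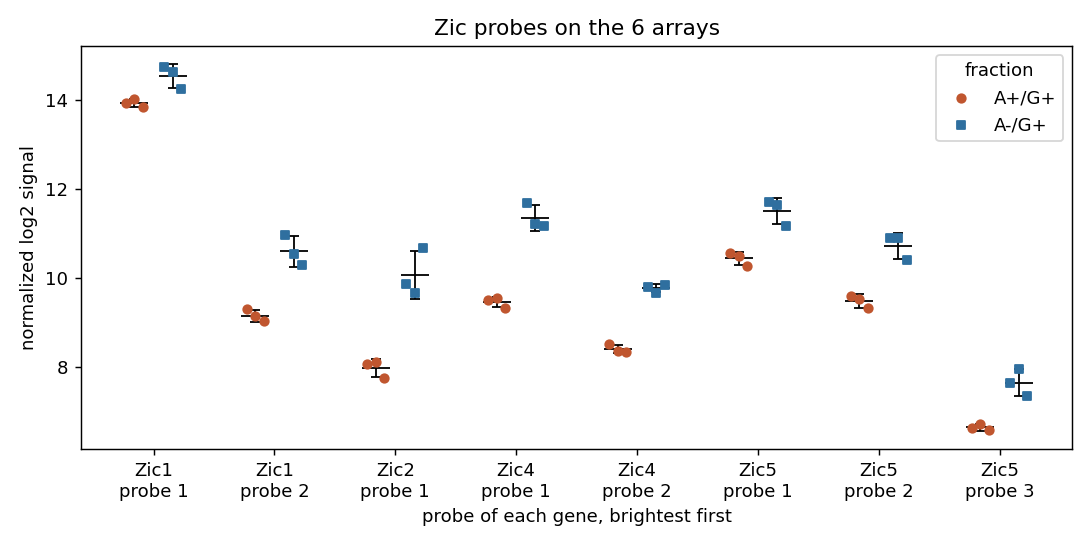
Normalized log2 signal (y axis) of the 8 Zic probes (x axis, brightest probe of a gene first) in the 3 A+/G+ samples (circles) and the 3 A-/G+ samples (squares), with the mean (wide bar) and SD (whiskers). For each probe the 3 squares lie above the 3 circles, and the levels of different probes are not comparable with each other.

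Zic1, the founding member and a gene required for normal cerebellar growth, was read by the probe with the smallest difference. Its brighter probe gave 13.95, 14.04 and 13.85 in A+/G+ and 14.75, 14.65 and 14.26 in A-/G+ (normalized log2 signal, replicates 1, 2 and 3). The fractions did not overlap, but only 0.215 separated the highest A+/G+ from the lowest A-/G+ sample. The difference of 0.604 (SE 0.151, 95% interval 0.214 to 0.994, 1.52-fold) did not pass the test (adjusted p = 0.0803). The dimmer probe, in the finger region, gave 9.30, 9.15 and 9.03 in A+/G+ and 10.97, 10.54 and 10.30 in A-/G+. Here the gap between the fractions was 0.996 and the difference 1.45 (SE 0.197, 2.72-fold, adjusted p = 0.0196). The 2 probes of Zic1 therefore agreed in direction and differed in size. The brighter probe lay above the dimmer one by 4.79 in A+/G+ and by 3.95 in A-/G+ on average, without overlap between the fractions (two-sided exact permutation p = 0.1, adjusted p = 0.167 over the 5 pairs of probes within a gene). Averaged over both probes, Zic1 was 1.02 higher in A-/G+ (SE 0.167, adjusted p = 0.0251 over 34836 gene names).

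Zic4, the partner of Zic1 on chromosome 9, had the smallest adjusted p of the 4 genes. Its brighter probe gave 9.50, 9.55 and 9.34 in A+/G+ and 11.69, 11.22 and 11.17 in A-/G+. The gap of 1.62 between the fractions was the widest among the 8 probes, and the difference was 1.90 (SE 0.167, 95% interval 1.47 to 2.33, 3.72-fold, adjusted p = 0.00799). The dimmer probe, which holds AATAAA, gave 8.52, 8.37 and 8.33 in A+/G+ and 9.81, 9.67 and 9.85 in A-/G+. With SDs of 0.097 and 0.093, this was the tightest pair of groups, and the difference was 1.37 (SE 0.0828, 2.58-fold, adjusted p = 0.00401). The brighter probe showed the larger difference, by 0.526 within arrays, again without overlap (two-sided exact permutation p = 0.1, adjusted p = 0.167).

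Zic2, a factor of the dorsal neural tube and of granule cell precursors, showed the largest difference over all arrays and the widest spread. Its single probe gave 8.08, 8.12 and 7.75 in A+/G+ and 9.87, 9.66 and 10.68 in A-/G+. The means lay 2.09 apart (SE 0.302, 95% interval 1.31 to 2.87, 4.25-fold, adjusted p = 0.0224), whereas the medians lay 3.47-fold apart, below the 4-fold limit. In A-/G+ replicate 3 the Zic2 signal was 0.912 above the mean of replicates 1 and 2. In the same sample both Zic1 probes, the brighter Zic4 probe and all 3 Zic5 probes were 0.291 to 0.50 below that mean, and the dimmer Zic4 probe was 0.110 above it. A-/G+ replicate 3 was also the brightest array of its group, with a 75th percentile of 251 compared with 56.6 and 113, and the part of this in the Zic2 value was not tested. Of 16 markers of the granule lineage, in which Zic2 is known, 11 had their highest A-/G+ value in this sample and 4 their lowest. The highest value fell there for 8 of 8 oligodendrocyte, 8 of 8 blood vessel and 0 of 12 general astrocyte markers. The share over all genes was not taken, so that these counts have no baseline. Barhl1, a factor of granule precursors, gave 8.33, 8.56 and 10.74 in A-/G+ replicates 1, 2 and 3, and Neurod1, a factor of differentiating granule cells, gave 7.67, 6.67 and 9.37. Of the same list, Pax6 (11.24, 11.10 and 10.92) and Etv1 (11.35, 11.29 and 11.08) were lowest in replicate 3. The part of granule cells in the Zic2 value was not tested. Without that replicate, the difference of Zic2 was 1.78 (adjusted p = 0.0108), below the 1.99 of the brighter Zic4 probe, so that Zic2 had the largest difference only with it.

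Zic5, the partner of Zic2 on chromosome 14 and like it a gene of the dorsal neural tube, was about 2-fold higher in A-/G+ by each of its probes. The brightest probe gave 10.56, 10.50 and 10.28 in A+/G+ and 11.72, 11.64 and 11.18 in A-/G+, a difference of 1.07 (SE 0.176, 2.10-fold, adjusted p = 0.0299). The second probe gave 9.60, 9.54 and 9.32 in A+/G+ and 10.90, 10.90 and 10.40 in A-/G+, a difference of 1.24 (SE 0.174, 2.37-fold, adjusted p = 0.0208). The dimmest gave 6.62, 6.73 and 6.58 in A+/G+ and 7.65, 7.96 and 7.34 in A-/G+, a difference of 1.01 (SE 0.173, 2.01-fold, adjusted p = 0.0333). Across 2375 bases the 3 Zic5 differences thus stayed within 0.238 of each other, and with normexp background correction they ran from 0.677 to 1.16. Of the 3 Zic5 pairs, the brightest and the second did not overlap between the fractions within arrays (two-sided exact permutation p = 0.1), and the other two pairs overlapped (p = 0.7 and p = 0.2).

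The fractions differed in how bright their arrays were, which bears on every Zic value. The 75th percentile of the intensity was 332 to 334 on the A+/G+ arrays and 56.6 to 251 on the A-/G+ arrays, and 26493 to 26676 probes were well above background in A+/G+ compared with 18361 to 24745 in A-/G+. Since one slide held the 3 A+/G+ arrays and another the 3 A-/G+ arrays, an effect of the slide and one of the fraction cannot be told apart. Without any scaling between arrays, only Zic2 and the brighter Zic4 probe remained higher in A-/G+, by 0.575 and 0.405, and the other 6 Zic probes were lower there by 0.075 to 0.638. On that unscaled signal, the median probe well above background was 1.35 lower in A-/G+, and relative to it all 8 Zic probes were 0.710 to 1.92 higher. After scaling to the 75th percentile, the median of all probes, most of them dim, was 1.02 higher in A-/G+. Relative to that median, 7 Zic probes stood higher and the brighter Zic1 probe stood 0.144 lower. In the quantile normalized data the median probe lay 0.116 higher in A-/G+ among those well above background. Since this shift grows toward dim probes, each Zic probe was set beside the probes within 0.5 of its mean log2 signal. Their median difference was 0.035 to 0.093 for 7 of the Zic probes and 0.153 for the dimmest Zic5 probe.

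**Figure D2:**
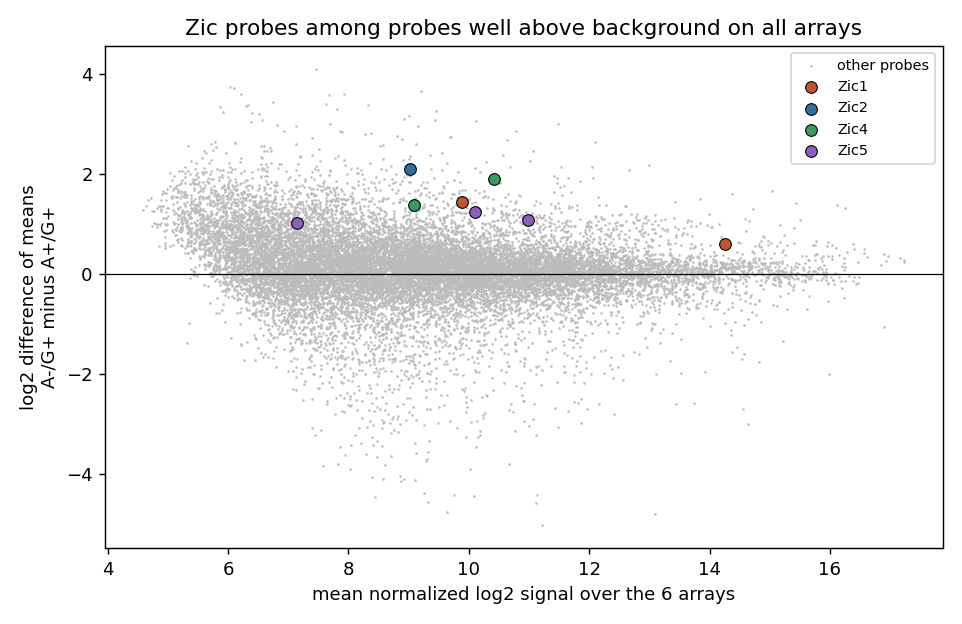
Log2 difference of the means, A-/G+ minus A+/G+ (y axis), against the mean normalized log2 signal over the 6 arrays (x axis) for the 17973 probes well above background on all arrays (grey), with the 8 Zic probes in color. The Zic probes lie between 0.604 and 2.09, above the center of the cloud at their signal, and the grey cloud rises toward dim probes.

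**Figure D3:**
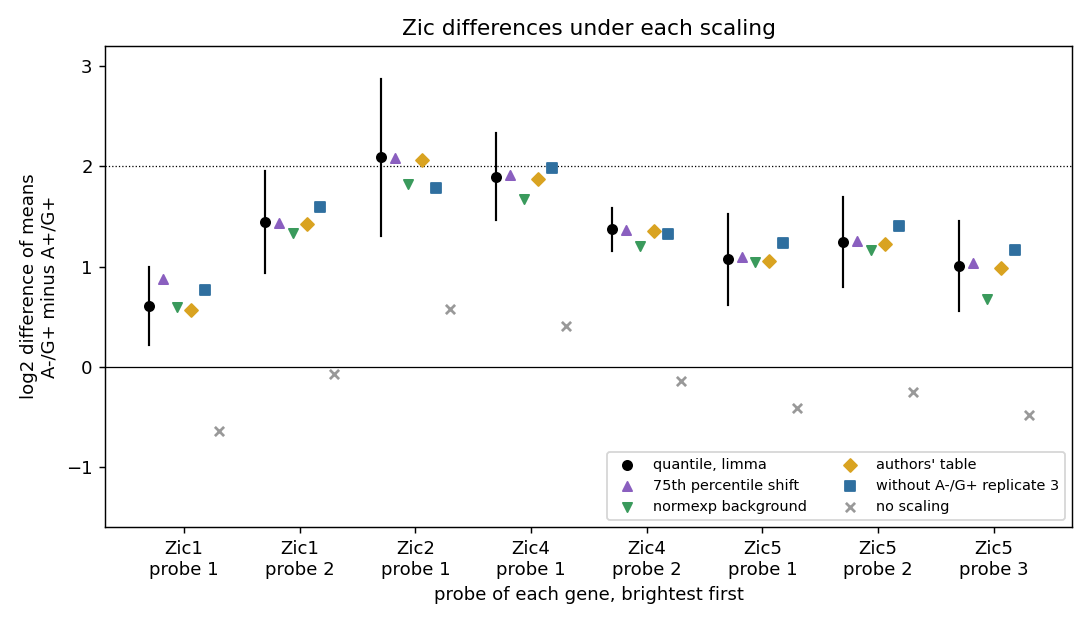
Log2 difference of the means, A-/G+ minus A+/G+ (y axis), of the 8 Zic probes (x axis) under quantile normalization (black, with the 95% interval from limma), 4 alternatives and no scaling (crosses). The dotted line marks 2, which is 4-fold. The 8 probes stayed above 0 under every setting drawn except no scaling, where 6 fell below it.

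The sorted antigens and the tissue were checked beside the Zic genes. Atp1b2, which encodes the ACSA-2 antigen, was 2.16 higher in A+/G+ (adjusted p = 0.00725). Slc1a3, which encodes GLAST, was present in both fractions and gave 13.4 in A+/G+ and 14.6 in A-/G+, a difference that did not pass the test (adjusted p = 0.0733). Of 8 factors of cerebellar and hindbrain identity, 5 were well above background on all arrays. En2, a factor of the cerebellar primordium, was 1.42 higher in A-/G+ (adjusted p = 0.0116) and Irx2 0.945 higher in A-/G+ (adjusted p = 0.0338), whereas Gbx2, a hindbrain factor, was 3.61 higher in A+/G+ (adjusted p = 0.00553). Over the arrays left out, 0 to 3 of these factors passed toward A-/G+, with 0 without A+/G+ replicate 2 or 3, and 1 toward A+/G+. Meis1 gave 12.7 in A+/G+ and 13.4 in A-/G+. No array showed En1, Pax5 or Pax8 well above background.

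The nearest relatives of the family, the GLI and GLIS factors, went both ways. Of 6 genes, Gli1 passed toward A-/G+ and Glis3 toward A+/G+, and the median difference was 0.283 toward A-/G+. Without any 1 of the A+/G+ arrays, 0 of the 6 passed. Over the brightest probes of all 34836 gene names, 4.82% passed toward A-/G+ and 5.63% toward A+/G+, and the median difference was 0.046 toward A-/G+. Gli1, which both transduces the hedgehog signal and is induced by it, gave 11.1 in A+/G+ and 13.0 in A-/G+, a difference of 1.92 (adjusted p = 0.0122). Gli3, the main repressor among them, gave 9.73 and 10.4 and did not pass (adjusted p = 0.060). Glis2 gave 11.4 and 11.3. Glis3 was well above background in A+/G+ alone, and its level there was at least 3.22-fold that of A-/G+ (adjusted p = 0.0169), a bound that leaves out the spread between arrays.

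Genes of the hedgehog pathway, whose GLI effectors can bind Zic proteins, went both ways, with 3 of 12 higher in A-/G+, 2 higher in A+/G+ and a median difference of 0.010. Hhip, a decoy receptor that the pathway induces, was 2.15 higher in A-/G+ (adjusted p = 0.0213), and Ccnd1, a cyclin that it induces in precursors, was 1.32 higher there (adjusted p = 0.00451). Cdon, a coreceptor of the ligand, was 1.94 higher in A+/G+ (adjusted p = 0.00751). Smo, the transducer, gave 12.9 in A+/G+ and 12.8 in A-/G+, and Ccnd2, another cyclin, gave 11.7 and 11.8. Without any 1 of the A+/G+ arrays, 1 gene of the pathway passed in each direction. No array showed the ligand Shh itself well above background.

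Of 7 genes on the array that have been tied to Zic factors in other systems, 1 was higher in A-/G+ and 2 were higher in A+/G+. Ephb1, a guidance receptor linked to Zic2 in retinal axons, was 1.41 higher in A-/G+ (adjusted p = 0.0198). Apoe, a lipid carrier of astrocytes, was 2.00 higher in A+/G+ (adjusted p = 0.00425), and Snai2, a neural crest factor, was 1.72 higher in A+/G+ (adjusted p = 0.0313). Pax3, a dorsal factor, gave 10.98 in A+/G+ and 11.66 in A-/G+ (adjusted p = 0.062). Over the arrays left out, 0 to 2 passed toward A-/G+ and 1 to 3 toward A+/G+.

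**Figure D4:**
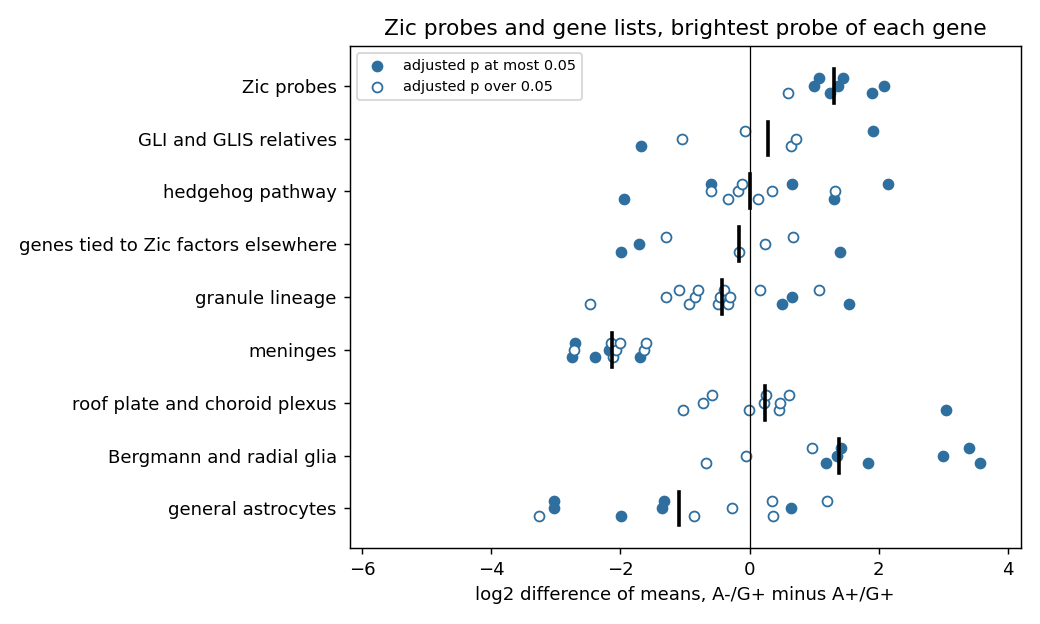
Log2 difference of the means, A-/G+ minus A+/G+ (x axis), of the 8 Zic probes and of the genes of 8 lists (rows), 1 point per gene by its brightest probe, filled where the adjusted p was at most 0.05. The black bars are medians, which lie at 1.31 for the Zic probes, 1.39 for Bergmann and radial glia, -2.13 for meninges and -0.431 for the granule lineage.

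Markers of the other cells known for Zic factors were examined in the same way. Of 12 meningeal markers, 5 passed toward A+/G+ and 0 toward A-/G+, and the median lay 2.13 toward A+/G+. Slc6a13, a transporter of the leptomeninges, was 2.75 higher in A+/G+ (adjusted p = 0.0175). Aldh1a2, a retinoic acid enzyme, gave 12.02 in A+/G+ and 9.30 in A-/G+ (adjusted p = 0.0523). The collagen gene Col1a2 gave 15.4 and 13.8, Col3a1 gave 13.6 and 11.5, and Dcn gave 14.1 and 12.1, and none of these 3 passed the test. The summed signal of the meningeal list was 16.4 to 16.7 in A+/G+ and 13.8 to 15.4 in A-/G+ on the log2 scale. Within A-/G+ the meningeal signal was lowest in replicate 3, as in the 14.39, 13.94 and 12.95 of Col1a2. Zic2 and the dimmer Zic4 probe were highest there. Both Zic1 probes, the brighter Zic4 probe and all 3 Zic5 probes were lowest there, like the meningeal signal. So were the summed signals of Bergmann and radial glia (17.2, 17.4 and 16.7 in replicates 1, 2 and 3) and of general astrocytes (17.2, 17.3 and 16.8). Other lists were highest there, that of the granule lineage among them (13.0, 13.0 and 13.5). The part of meningeal or any of these cells in the Zic values was not tested. Without A-/G+ replicate 3, 10 of 12 passed toward A+/G+, and without any 1 of the A+/G+ arrays 2 did. In bulk samples, fewer cells of a type and less RNA per cell cannot be told apart.

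Markers of the granule lineage gave a mixed picture. Of 16, 3 passed toward A-/G+ and 0 toward A+/G+, whereas the median difference lay 0.431 toward A+/G+. The 3 were Pax6, a factor of granule precursors and of radial glia, higher by 1.54 (adjusted p = 0.0073), Mycn, a target of hedgehog signaling, higher by 0.652 (adjusted p = 0.0162), and Etv1, higher by 0.507 (adjusted p = 0.0347). Rbfox3, a marker of postmitotic neurons, gave 10.4 in A+/G+ and 10.0 in A-/G+. Cbln1, a synaptic protein of granule neurons, gave 9.69 and 7.21 (adjusted p = 0.134). Atoh1, the factor that defines granule precursors and that Zic1 has been tied to, gave 8.59 in A+/G+ and 7.30 in A-/G+ (adjusted p = 0.263). Without A-/G+ replicate 3, 4 markers were higher in A+/G+, and 1 to 3 were higher in A-/G+ over all arrays left out. The summed signal of the list was 12.8 to 13.2 in A+/G+ and 13.0 to 13.5 in A-/G+.

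In the roof plate and choroid plexus list, 1 of 10 genes passed toward A-/G+ and 0 toward A+/G+, and without any 1 of the A+/G+ arrays 0 passed toward A-/G+. The median difference was 0.237 toward A-/G+. The gene was Msx2, a factor of the dorsal midline, which gave the list's largest difference, 3.05 (adjusted p = 0.0124). Msx1 gave 10.2 in A+/G+ and 9.14 in A-/G+. Ttr and Folr1, both of choroid plexus epithelium, gave 14.6 and 10.6 in A+/G+ and 15.1 and 11.2 in A-/G+, and Otx2 gave 10.8 and 10.2.

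Markers of Bergmann glia, the radial astrocytes of the cerebellar cortex, were for the most part higher in A-/G+, like the Zic probes. Of 10, 7 passed toward A-/G+ and 0 toward A+/G+, the median lay 1.39 toward A-/G+, and over the arrays left out 3 to 8 were higher, the fewest without A+/G+ replicate 2. Gria1, a glutamate receptor subunit, was 3.58 higher (adjusted p = 0.00707), and Npy, a neuropeptide gene, was 3.40 higher (adjusted p = 0.00181). Some genes of this list, Gria1 and Npy among them, had been reported by the study as higher in A-/G+ on these same arrays. Their direction was thus known before the list was made, and the count is no independent parallel to the Zic probes. The brightest 3, Fabp7, Vim and Ptprz1, did not pass. Fabp7, a radial glial lipid binding protein, gave 16.4 in both fractions, Vim gave 13.5 in A+/G+ and 14.4 in A-/G+, and Ptprz1 gave 14.1 and 13.5. Of 12 genes shared by astrocytes in general, 5 passed toward A+/G+ and 1 toward A-/G+, and without any 1 of the A+/G+ arrays 2 and 0 did. Aldoc was 1.35 higher in A+/G+ (adjusted p = 0.0175) and Gfap 3.03 higher (adjusted p = 0.0182), whereas Aldh1l1 was 0.637 higher in A-/G+ (adjusted p = 0.0452). Gjb6, a gap junction gene, gave 11.8 in A+/G+ and 8.53 in A-/G+ (adjusted p = 0.0513).

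Other cell types that a sort could hold were checked by their markers. Of 10 Purkinje cell markers, 6 passed toward A+/G+ and 1 toward A-/G+, and Calb1, well above background in A+/G+ alone, had at least 31.7-fold the level of A-/G+ there (adjusted p = 0.0105). This bound allows for the background only and not for the spread between arrays. Pcp2 was 4.99 higher in A+/G+ (adjusted p = 0.00867). In the GABAergic interneuron lineage genes went both ways, with the progenitor genes Ptf1a and Kirrel2 higher in A-/G+ by 2.69 and 2.96, and the transmitter genes Slc32a1 and Gad1 higher in A+/G+ by 2.84 and 2.69 (adjusted p = 0.0224 and 0.0181). Over the arrays left out, 0 to 3 genes of this lineage passed toward A+/G+, and 0 did without A+/G+ replicate 2, A+/G+ replicate 3 or A-/G+ replicate 2. The genes that passed toward A+/G+ and toward A-/G+ numbered 3 and 1 of 8 for the oligodendrocyte lineage, 5 and 0 of 8 for ependymal cells, 3 and 0 of 8 for blood vessels, 1 and 0 of 8 for microglia, 0 and 0 of 6 for red blood cells, and 1 and 0 of 7 for unipolar brush cells and cerebellar nuclei. Over the arrays left out, 2 to 6 Purkinje, 2 to 6 oligodendrocyte, 1 to 5 ependymal, 1 to 5 vessel, 0 to 2 microglial, 0 to 3 red blood cell and 0 to 2 unipolar brush cell or nuclear markers passed toward A+/G+, with 3 red blood cell markers only without A-/G+ replicate 3. The part of any of these cells in the Zic values was not tested.

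The Zic probes also followed each other across the 6 arrays, which in large part restates the difference between the fractions. Pearson's r was 0.998 between the brightest and the second Zic5 probe, 0.991 between the dimmer Zic1 and the brighter Zic4 probe, and 0.743, the lowest, between Zic2 and the brighter Zic1 probe. Among 13701 genes whose brightest probe was well above background on all arrays, the profile most like that of Zic4 was of Zfp609 (r = 0.9996), followed by Prpf4 (r = 0.9986) and Arhgef39 (r = 0.9984). Fam60a (r = 0.9986) and Hist2h3b (r = 0.9982) were 2 of the 3 nearest to Zic2. Bcl7a (r = 0.9984) and Mex3b (r = 0.9979) were 2 of the 3 nearest to Zic5, and the remaining neighbor of each was a transcript that the array names by position only. Zic1 stood nearest to 4932433N03Rik, Dhx8 and Mccc1, with r of 0.9965 to 0.9968.

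Since Zic1 and Zic4 are neighbors that were higher in the same fraction, the 250 bases before their RefSeq starts are shown (GRCm38.p6, 5′ to 3′ on the strand of the gene), with 2 short motifs in capitals, the CCAAT box and the GC box, whose letters are GGGCGG.
Zic1, chr9:91365769-91366018, minus strand: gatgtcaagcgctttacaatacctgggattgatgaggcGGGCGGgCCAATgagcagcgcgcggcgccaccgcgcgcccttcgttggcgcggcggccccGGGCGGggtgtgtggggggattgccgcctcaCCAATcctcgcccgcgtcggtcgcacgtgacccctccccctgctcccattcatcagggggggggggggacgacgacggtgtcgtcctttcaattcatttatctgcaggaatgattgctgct
Zic4, chr9:91368722-91368971, plus strand: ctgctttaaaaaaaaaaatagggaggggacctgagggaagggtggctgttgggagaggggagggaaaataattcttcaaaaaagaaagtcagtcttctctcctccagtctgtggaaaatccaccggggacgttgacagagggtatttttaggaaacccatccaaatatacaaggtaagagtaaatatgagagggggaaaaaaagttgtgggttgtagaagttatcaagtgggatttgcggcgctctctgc
The windows differ in base composition. That of Zic1 is 66.0% GC with 27 CpG dinucleotides, whereas that of Zic4 is 44.4% GC with 4, and the window of Zic5 is 62.4% GC with 11, compared with medians of 52.4% and 6 over 32851 RefSeq promoter windows of the same length. Beside these boxes, the TATA box, searched as TATAAA, and the core of a GLI site that Zic fingers can also bind, searched as GGGTGGTC, were looked for, all of them on both strands, and no match overlapped another. Zic1 holds 2 CCAAT boxes and 2 GC boxes, which occur in 33.8% and 32.7% of all windows, respectively. The windows of Zic4 and Zic5 hold none of the 4 motifs, and the TATA box and the GLI core, found in 12.4% and 0.703% of all windows, are in none of the windows of these 3 genes.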

How the data were processed

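RNA of 6 samples, 3 per fraction, was amplified from polyA tails, labeled with Cy3 and hybridized to Agilent 1-color arrays. Deposited were the scanner files, with background-corrected intensities from Feature Extraction 10.7.3.1, and a log2 table, quantile normalized by the authors, in which 38 cells are empty. Each array carries 62976 spots, and 59305 of them are no controls and belong to 55681 probes, each of 60 bases. Their intensities were taken to the log2 scale without spots marked as outliers, of which the Zic probes had 0, and were quantile normalized as in the study's methods. Repeated spots of a probe were averaged. A+/G+ was set against A-/G+ with limma 3.58.1 in R 4.3.3 over all probes with Benjamini-Hochberg adjustment at 0.05, without a filter on dim probes. The study's own call also needs medians at least 4-fold apart and used a two-tailed t-test, which is an alternative here. Differences are of log2 means, errors are SEs of the fit, and the number of arrays limits the precision.

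Named are all probes of Zic1, Zic2, Zic4 and Zic5, the genes of both sort antigens, in each of 17 gene lists the 3 genes brightest on average and the 2 with the largest difference by the brightest probe of each gene, and the 3 genes most correlated with each Zic gene. The other genes named in the text (Mycn, Atoh1, Barhl1, Neurod1, Gad1, Ptf1a, Shh, En1, Pax5 and Pax8) were chosen after their values were seen. In all, 160 of 161 list entries were found on the array. The members and lists were chosen with earlier results of these data known. Some genes, other Zic genes among them, are not reported here. Sequences and strands come from the array files (mm9) and RefSeq (GRCm38.p6), which were not mixed, and 3 of the 4 genes had a RefSeq promoter window. Where a fraction had no array on which a probe was well above background, only a bound is given, taken against the dimmest signal on each array that was itself well above background, or against the probe itself where it was brighter than that. Such a bound is no lower limit of an interval, as it leaves out the spread between arrays.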

Additional observations from a re-analysis of the deposited data

How the results depend on the processing

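Under 14 alternatives, all 8 Zic probes stayed higher in A-/G+. The brighter Zic4 probe passed under 13 of 14 (adjusted p 0.000422 to 0.065), Zic2 under 8 (0.0054 to 0.121), the brightest Zic5 probe under 6 (0.00791 to 0.109) and the brighter Zic1 probe under 3 (0.0151 to 0.244). Differences are given as A+/G+ minus A-/G+. The brighter Zic1 probe passed with normexp background correction (-0.598, adjusted p = 0.0478), with a filter on dim probes (-0.604, 0.0471) and without A-/G+ replicate 3 (-0.766, 0.0151). The mean of both Zic1 probes also passed (-1.024, 0.0251). With the 75th percentile shift the brightest Zic5 probe was at -1.097 (adjusted p = 0.0501), and 1227 probes passed as higher in A+/G+ (2589 in the main analysis). With the methods' t-test 2 of 8 Zic probes passed, Zic2 (-2.088, adjusted p = 0.0579) and Zic5 (-1.070, 0.0682) no longer did, and over all genes 1351 probes passed toward A+/G+ and 1197 toward A-/G+ (2589 and 2583 in the main analysis).

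Deviations of same-numbered samples from the mean of their fraction correlated at 0.196, 0.113 and -0.113, and those of differently numbered samples at -0.24 to 0.169. With 3 arrays per fraction, these values cannot tell whether the shared replicate numbers pair the samples. With the replicate block, 0 of 8 Zic probes passed (Zic2 -2.088, adjusted p = 0.121, Zic4 -1.896, 0.065, Zic5 -1.070, 0.0687), as did 0 probes in either direction. Without scaling between arrays, an alternative chosen after seeing the data, 0 Zic probes passed. Zic2 (-0.575) and the brighter Zic4 probe (-0.405) kept their direction, while the Zic1 probes (0.638 and 0.075), the dimmer Zic4 probe (0.146) and the Zic5 probes from bright to dim (0.415, 0.256 and 0.478) reversed, and 26 probes passed as higher in A-/G+.

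With each array left out, 2 to 8 Zic probes passed, the fewest without any 1 of the A+/G+ arrays and all 8 without A-/G+ replicate 3, and 0 to 1 were called at 4-fold. The differences ran from -0.766 to -0.500 for the brighter Zic1 probe, from -2.283 to -1.779 for Zic2, from -1.986 to -1.725 for Zic4, where every fit passed, and from -1.235 to -0.968 for Zic5. Probes that passed ran from 825 to 4469 higher in A+/G+ and from 409 to 4622 higher in A-/G+. The cause was not tested. A block for slide or scan could not be fitted, as no slide held both fractions.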
